A study of Mus musculus with 6 samples.

Results

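The mouse replication-dependent histone genes were followed in a PRO-seq data set of muscle stem cells (MuSCs, also called satellite cells) with and without *Kmt5b*. Members were chosen by name: every gene of the deposited table whose symbol starts with Hist1h, Hist2h, Hist3h or Hist4h, which gave 19 of 14546 listed genes. They comprised 3 genes for the linker histone H1, 2 for H2A, 7 for H2B, 4 for H3 and 3 for H4. By cluster, 13 lay in Hist1 on chromosome 13, 4 in Hist2 on chromosome 3, and 1 each in Hist3 on chromosome 11 and Hist4 on chromosome 6. The GENCODE annotation of the GRCm38 build has 67 protein-coding genes with such symbols. The 19 listed genes were those with a transcript of at least 1000 nt, the minimum length the authors set, and the other 48 were not analysed here.

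Proliferating MuSCs in culture were compared between 3 Ctrl libraries (Pax7CreERT/Suv4-20h1WT, with an intact *Kmt5b*) and 3 *Kmt5b* sKO libraries (Pax7CreERT/Suv4-20h1KO, with floxed *Kmt5b* alleles). *Suv4-20h1* is the older name of *Kmt5b*, which encodes a histone H4 lysine methyltransferase. Both groups carried the tamoxifen-inducible Cre recombinase expressed from the *Pax7* locus, so that Cre acts in Pax7-expressing cells, on a C57BL/6 background. By the study's methods, tamoxifen was given to mice 8 to 12 weeks old, and the MuSCs were isolated from limb and trunk muscle with magnetic beads and then expanded in medium with serum, LIF and bFGF. PRO-seq (precision nuclear run-on sequencing) captures RNA that engaged RNA polymerase extends in isolated nuclei, and so reports ongoing transcription and not the stored mRNA. The table gives, for each gene, the reads in the first 400 nt of the transcript scaled to library size (the TSS region, in RPM) and a length-normalized level for the rest of it (the gene body, in TPM). The study's reporting form gives the 3 libraries of a group as biological replicates, while the labels do not say which animals or cultures they came from, so the p-values measure the spread between these libraries.

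Replication-dependent histone genes supply the histones that package newly copied DNA, and their transcription is coupled to S phase. As a rule their mRNAs are not polyadenylated. Most lack introns and end in a short stem-loop that is bound by SLBP, and the U7 small nuclear ribonucleoprotein directs cleavage just after it. The genes are gathered in nuclear histone locus bodies, where the coactivator NPAT acts downstream of cyclin E and CDK2. In proliferating myoblasts they are among the most heavily transcribed genes.

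The promoters of the listed genes were read for short elements known from histone genes, and a few are shown because the genes were lower together in the comparison that follows. RefSeq (GRCm38.p6) gave a promoter for 15 of the 19 genes. Over the window from 250 bases before to 50 bases after the start, on both strands, a CCAAT box (CCAAT) was found in 14 of 15, against 37.4% of all 32817 promoters. In *Hist2h3c1* and *Hist2h3c2* it lay behind the start. A TATA box (TATAAA or TATATA) was found in 8 of 15, against 17.1%. The octamer ATTTGCAT was found in 2 of 15, against 1.74%. The related ATTTGAAT, searched after the sequences had been seen, was found in 6 of 15, against 1.24%. These 6 include *Hist1h2be*, whose listed start lies 35168 nt before its first coding base. They also include *Hist1h2bq* and *Hist1h2br*, which were identical over the 120 bases before the start. A match is a description of these letters and does not show that a factor was bound. The 120 bases before the RefSeq start are given in lower case with every matched motif, on either strand, in capitals. They lie at chr13:23738687-23738806 (+) for *Hist1h1c*, chr13:21810200-21810319 (-) for *Hist1h2bq*, chr13:23575643-23575762 (+) for *Hist1h3d*, chr13:23581448-23581567 (+) for *Hist1h4d*, chr3:96239128-96239247 (-) for *Hist2h3c2* and chr6:136804432-136804551 (-) for *Hist4h4*.
Hist1h1c: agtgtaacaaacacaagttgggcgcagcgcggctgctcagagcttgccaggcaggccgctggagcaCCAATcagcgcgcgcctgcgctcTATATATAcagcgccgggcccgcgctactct
Hist1h2bq: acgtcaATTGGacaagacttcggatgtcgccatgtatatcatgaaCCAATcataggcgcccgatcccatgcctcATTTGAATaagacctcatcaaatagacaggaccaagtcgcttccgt
Hist1h3d: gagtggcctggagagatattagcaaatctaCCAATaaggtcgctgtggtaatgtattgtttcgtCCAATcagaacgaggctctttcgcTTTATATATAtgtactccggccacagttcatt
Hist1h4d: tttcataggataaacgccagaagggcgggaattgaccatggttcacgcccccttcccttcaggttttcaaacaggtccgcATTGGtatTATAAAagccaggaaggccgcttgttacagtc
Hist2h3c2: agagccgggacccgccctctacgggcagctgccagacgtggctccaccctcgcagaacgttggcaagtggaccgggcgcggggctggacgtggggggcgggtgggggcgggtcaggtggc
Hist4h4: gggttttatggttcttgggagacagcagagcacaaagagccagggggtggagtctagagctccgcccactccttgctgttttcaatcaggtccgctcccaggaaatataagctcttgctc

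*Hist1h1c* joined a CCAAT box to a TATA box, as did *Hist1h3d* and *Hist1h4d*, with the TATA box starting 30 to 32 bases before the start. The H2B gene *Hist1h2bq* held 2 CCAAT boxes and the ATTTGAAT octamer in place of a TATA box, and the window of *Hist1h2br* was identical to it over 120 of 120 bases. *Hist2h3c2* and *Hist4h4* held none of these motifs in the window shown. *Hist1h2ac* (H2A, minus strand) and *Hist1h2bc* (H2B, plus strand) start 251 bases apart and point away from each other. The 250 bases between them, chr13:23683949-23684198 of GRCm38.p6 read on the plus strand, held the 3 CCAAT boxes, the octamer and the TATA box in capitals here.
Hist1h2ac to Hist1h2bc: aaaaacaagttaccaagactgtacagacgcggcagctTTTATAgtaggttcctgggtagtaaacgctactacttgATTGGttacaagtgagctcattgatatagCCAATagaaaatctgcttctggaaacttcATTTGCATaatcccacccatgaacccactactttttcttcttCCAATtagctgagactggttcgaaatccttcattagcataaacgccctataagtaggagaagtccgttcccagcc

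The stem-loop was searched on the sense strand of each listed span as the loop letters TTTC between 2 fully paired arms of 6 bases, and was found in 16 of 19 genes in 2 forms. It is shown because cleavage there would split a counted gene into a part that becomes mRNA and a part behind it. The listed transcripts of all 16 are annotated as running past the match. Which 3′ end was used was not tested. The loop is in capitals.
H1, H2A, H2B and H3 genes (14 genes): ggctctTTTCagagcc
H4 genes Hist1h4d and Hist4h4: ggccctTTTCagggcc

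In 13 genes the match lay 27 to 57 nt behind the annotated coding part, and in *Hist1h2bp*, *Hist1h2bq* and *Hist1h2br* it lay inside a longer spliced coding annotation. For 14 genes with the match near the listed start, 60.7% to 100% of the counted gene body (median 94.6%) lay downstream of it. The TSS region of these genes therefore covered much of the coding part and the gene body mainly what polymerases transcribe past the stem-loop. *Hist1h1d*, *Hist1h2be* and *Hist1h3f* were different. Their listed transcript starts 1828, 35168 and 433 nt before the first coding base, so their TSS regions hold no coding sequence of their own. The TSS region of *Hist1h2be* also lies inside the gene body of *Hist1h1e*, on the same strand, and that of *Hist3h2a* is also the TSS region listed for *Trim17*, so these reads cannot be told apart. Annotated same-strand genes that are not listed overlap too. *Gm20634* overlaps both regions of *Hist2h3c1*, and *Gm24991* the gene body of *Hist1h2ac*. *Gm11398* overlaps the gene body of *Hist1h1e* and the TSS region of *Hist1h2be*.

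**Figure D1:**
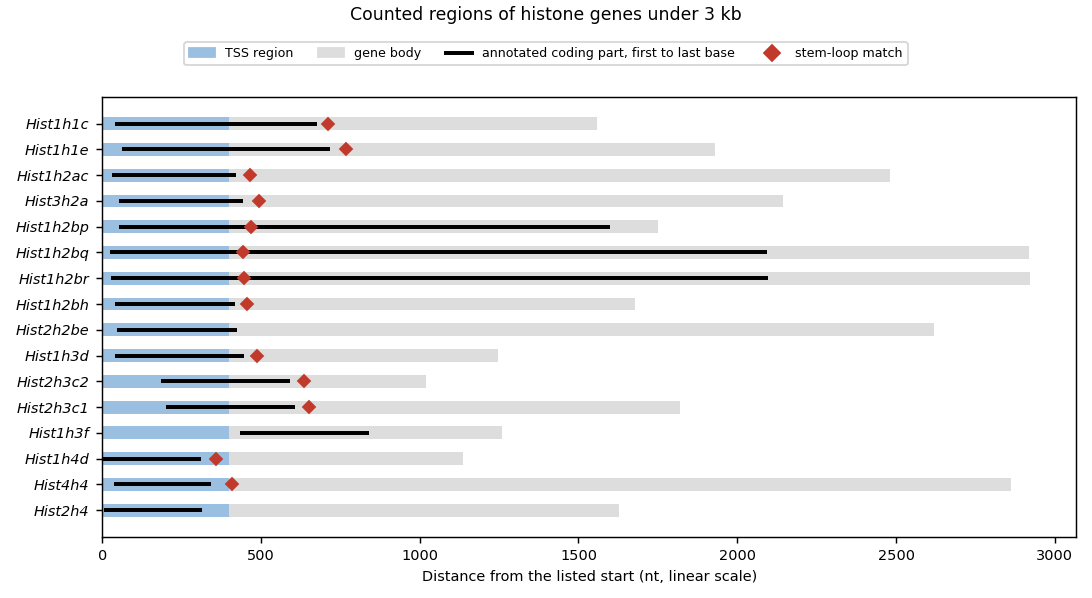
Counted regions of the 16 histone genes shorter than 3 kb, drawn to scale from the listed start (x axis in nt, 1 row per gene). The TSS region is blue, the gene body grey, the annotated coding part from its first to its last base (introns included) black, and the stem-loop match a red diamond, which falls beyond or just inside the end of the TSS region and leaves most of the gene body behind it.

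Sequence shared between gene copies limits how far single genes can be told apart, since the authors kept 1 random position for a read that fits several. Windows of 32 nt were therefore counted over the assembled chromosomes, both strands included (reads longer than this would be less often shared). In the TSS region no window was single-copy for *Hist1h2ac*, *Hist1h2bc*, *Hist1h2bp*, *Hist1h2bq*, *Hist1h2br*, *Hist2h3c1* and *Hist2h3c2*, so their levels also draw on the copies that were not analysed here. *Hist1h2bq* and *Hist1h2br* shared 99.5% of their TSS windows with each other and *Hist2h3c1* and *Hist2h3c2* shared 95.9%, so the members of each pair are not independent observations. Other H2B genes overlapped less fully: *Hist1h2bc* shared 73.8% and *Hist1h2bp* 68.1% of its windows with *Hist1h2br*, and *Hist1h2bh* 57.8% with *Hist1h2bc*, so their TSS values are not separate either. In the TSS region 16.2% of the windows were single-copy for *Hist1h3d*, 39.5% for *Hist1h4d*, 50.3% for *Hist1h1c* and 47.3% for *Hist1h1e*. The last 2 genes shared 33.0% of their TSS windows with each other. By contrast, 99.7% of the windows were single-copy for *Hist4h4*, 89.7% for *Hist2h4* and 84.9% for *Hist2h2be*. Gene bodies were more distinct: 10 of the 18 genes tested had over 80% single-copy windows there. Those of *Hist1h2bq* and *Hist1h2br* had no single-copy window. Sharing between members was counted for TSS windows only.

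The listed genes held 926904 to 3246052 reads per library in TSS regions and 7425419 to 16249196 in gene bodies, with the *Kmt5b* sKO replicate 2 the shallowest in both. Apart from the TSS region of *Hist1h1d*, each histone value rested on 65 or more reads. *Kmt5b* itself read 93.7, 87.3 and 102 RPM in Ctrl, against 120, 107 and 113 RPM in *Kmt5b* sKO at its TSS region, a value that does not check the labels because the sources used here do not place the deleted part inside the counted 400 nt and the gene body spans 40402 nt. The myoblast gene *Myod1* read 855 to 1272 TPM in Ctrl and 1091 to 1328 TPM in *Kmt5b* sKO gene bodies, and *Pax7* 26 to 53.7 and 25.5 to 29.5 TPM. Of the 8 MuSC and myoblast markers none was called in either region. Of markers for other cells, the endothelial gene *Pecam1* reached at most 3.04 TPM and the blood gene *Laptm5* 5.27 TPM, while *Cd68* lay at 214 to 402 TPM in all libraries. None of the 3 fibro-adipogenic markers tested was called, and their gene bodies summed to 4.98 to 17.5 TPM. Mature fibre markers were higher in *Kmt5b* sKO in 4 of 4 tested in both regions, with 0 called by limma (4 and 3 had an unadjusted p under 0.05), and their summed TSS level was 402 to 743 RPM in Ctrl and 954.9 to 1398 RPM in *Kmt5b* sKO; their part in the results was not tested.

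Histone genes took up a large share of ongoing transcription in Ctrl MuSCs and 2.15-fold less of it at TSS regions in *Kmt5b* sKO MuSCs. The 19 TSS regions together held 38499, 32213 and 29592 RPM in the Ctrl libraries and 13266, 17974 and 15491 RPM in the *Kmt5b* sKO libraries. Every *Kmt5b* sKO library was below every Ctrl library, and the mean stood at 46.6% of the Ctrl mean. In gene bodies the sums were 31640.3, 24945 and 33763 TPM against 10172, 19842 and 10126 TPM, or 44.4% of Ctrl, again without overlap. As a share of the signal of all listed genes, the TSS regions fell from 4.81% to 6.32% in Ctrl to 2.198% to 2.94% in *Kmt5b* sKO. Leaving out the mitochondrial genes, 12 of the 19 ranked among the 20 highest TSS regions in Ctrl, with *Hist1h1c* at the top, and 10 among the 20 highest gene bodies, with *Hist1h3f* at the top. The values are scaled to library size, and the methods name no spike-in for PRO-seq, so they are shares of each library's signal. In these bulk samples a smaller number of cells in S phase, less histone transcription per cell and a larger total signal per cell cannot be told apart. The paper's flow cytometry found no significant difference in the S phase share of cultured MuSCs, with slightly more mutant cells in G2/M. It also reported reduced expansion of the mutant cells, more staining for a senescence marker, and stronger labelling of new RNA in mutant cells positive for PCNA. How these bear on the histone values was not tested.

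**Figure D2:**
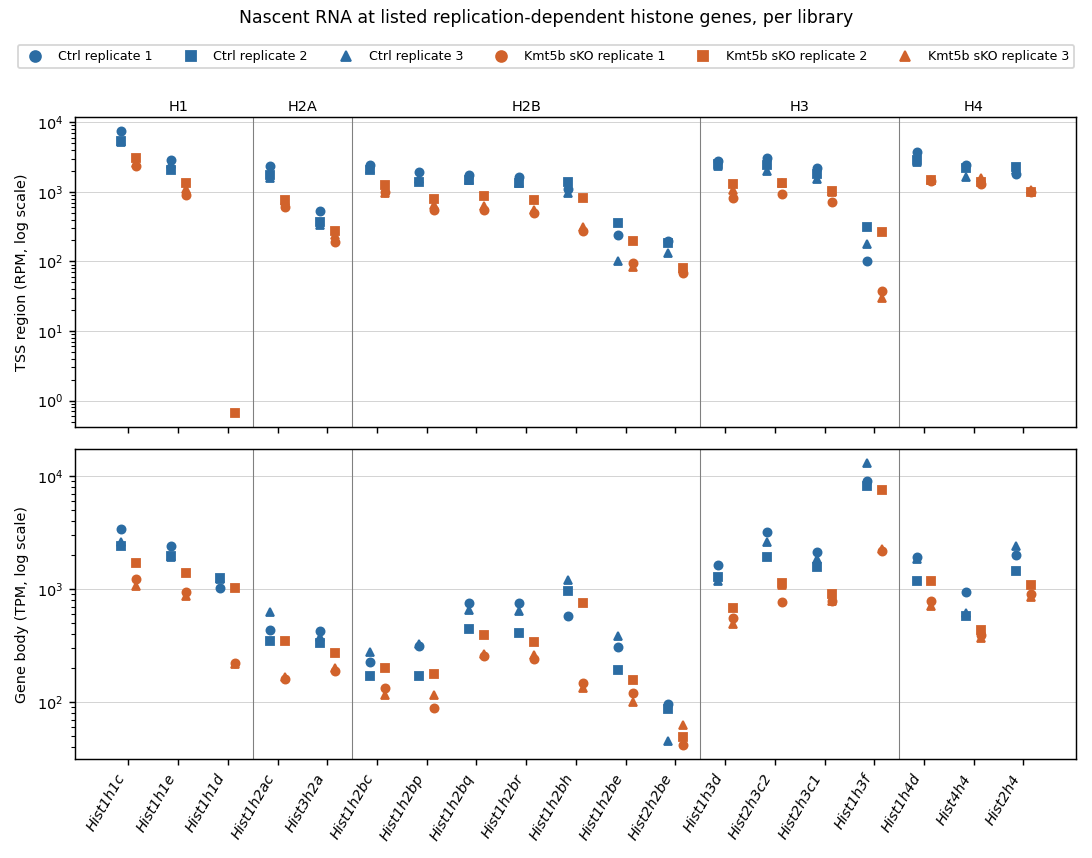
Levels of the 19 histone genes in each of the 6 libraries, TSS region in RPM above and gene body in TPM below, both on log axes, with genes grouped by histone type (zeros cannot be drawn, so *Hist1h1d* shows 1 TSS point at 0.66 RPM). In the TSS region the *Kmt5b* sKO points (orange) lie below all Ctrl points (blue) for 16 of 19 genes, and in the gene body for 14 of 19.

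Each gene was tested with limma on log2(value + 0.5) across 12451 autosomal genes whose mean reached 0.5 in each region, which 18 of the 19 passed; *Hist1h1d* did not, because of its TSS region. In the TSS region 9 of the 18 fell at an adjusted p under 0.1, where 0.731% of all genes tested were called lower. None of the 18 rose. The fitted log2 fold change was below 0 for 18 of 18 genes, with a median of -1.15 against 0.08 for all genes tested, and 16 of 18 had every *Kmt5b* sKO library below every Ctrl library, as 5.33% of all genes tested did. In the gene body 3 of the 18 fell, where 1.38% of all genes were called lower. The log2 fold change was again below 0 for 18 of 18, with a median of -1.08 against 0.02 for all genes, and 14 of 18 had no overlap between the groups, against 9.34% of all genes. Without an adjustment, p by limma was under 0.05 for 17 of the TSS regions and 16 of the gene bodies. The matching share over all genes tested is not given here. Unadjusted counts for the 2 regions, here and below, therefore stand without a background. The number of calls depended on the fit and on single libraries. Without the filter on low values, or with eBayes without a trend, 0 TSS regions of any gene were called by limma (14 and 15 of the histone genes at an unadjusted p under 0.05). With 1 library left out, 0 of 18 were called in the TSS region without Ctrl replicate 1 or *Kmt5b* sKO replicate 1 and 1 without *Kmt5b* sKO replicate 3, but 15 without Ctrl replicate 2 and 16 without Ctrl replicate 3. In the gene body no call was left when Ctrl replicate 1 or a single *Kmt5b* sKO library was dropped (0 in each case, with 12 to 17 at an unadjusted p under 0.05), and dropping Ctrl replicates 2 and 3 gave 7 and 4. Under each of these the fold change stayed below 0 for 18 of 18 genes.

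**Figure D3:**
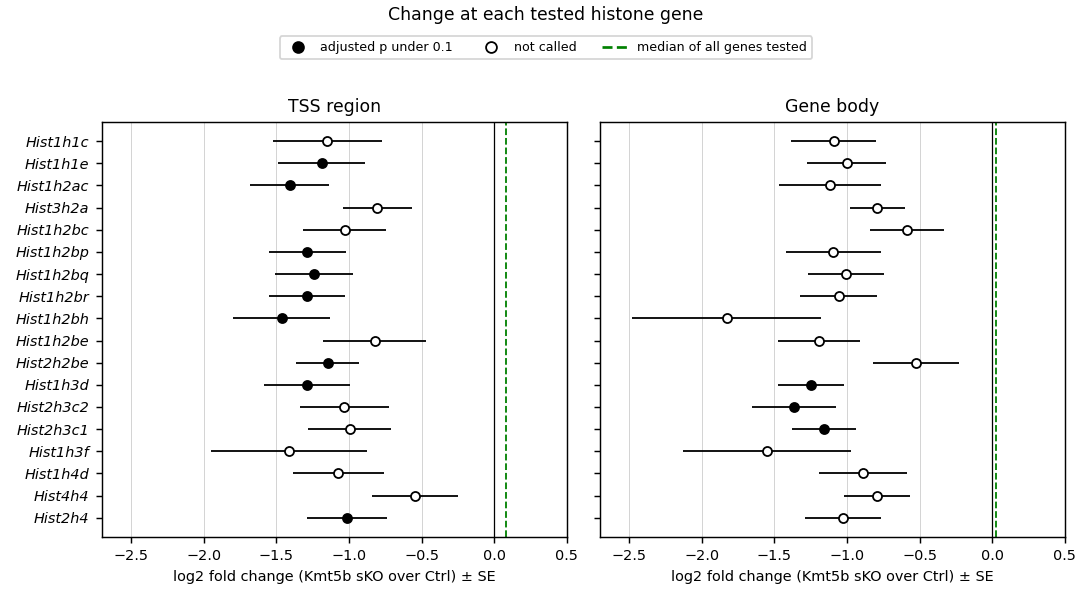
Log2 fold change of *Kmt5b* sKO over Ctrl, with its standard error from limma, for the 18 histone genes tested in the TSS region (left) and the gene body (right), from 3 libraries per group. Filled points passed an adjusted p of 0.1 (9 on the left, 3 on the right), and all points lie left of 0 while the dashed median of all genes tested lies at 0.08 and 0.02.

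Linker histone H1 binds where DNA enters and leaves the nucleosome. *Hist1h1c* was the strongest TSS region of all nuclear genes in Ctrl, at 7389, 5389.9 and 5119 RPM, and read 2335, 3069 and 2611 RPM in *Kmt5b* sKO. The groups did not overlap, but its log2 fold change of -1.15 ± 0.38 (SE, n = 3 per group) was not called (adjusted p = 0.183 from limma). *Hist1h1e* read 2908, 2080.5 and 2524 RPM in Ctrl, against 887, 1328 and 1092 RPM in *Kmt5b* sKO. These groups stood apart, and the fall to 44.0% of Ctrl (log2 fold change -1.19 ± 0.30) was called (adjusted p = 0.0718 from limma). Their gene bodies, which were 97.96% and 100% single-copy, had log2 fold changes of -1.09 and -1.004 with no overlap and no call (adjusted p of 0.134 and 0.136 from limma). *Hist1h1d* had 0 reads in the TSS region of 5 libraries and 1 read in the other, since the listed start lies 1770 nt before the RefSeq start. Its gene body, which holds the coding part, read 1029, 1259 and 1229.5 TPM in Ctrl, against 224, 1031 and 217 TPM in *Kmt5b* sKO, with replicate 2 at the Ctrl level.

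The core histone H2A was represented by *Hist1h2ac* and *Hist3h2a*. *Hist1h2ac* read 2344, 1725 and 1589 RPM in Ctrl, against 609, 753 and 748 RPM in *Kmt5b* sKO. No library of one group reached the other, and the mean was 37.3% of Ctrl, the lowest share of the 18 TSS regions tested (log2 fold change -1.41 ± 0.27, adjusted p = 0.0358 from limma). Its gene body, 98.05% single-copy, read 438, 351 and 625 TPM against 159.9, 351 and 167 TPM. There *Kmt5b* sKO replicate 2 all but equalled Ctrl replicate 2, and the change of -1.12 ± 0.35 was not called (adjusted p = 0.182 from limma). *Hist3h2a*, on chromosome 11 far from the other genes, read 536, 373 and 329 RPM in Ctrl, against 188, 273 and 239 RPM in *Kmt5b* sKO. Its TSS region was at 56.5% of Ctrl and its gene body at 58.2%, without overlap in either and without a call (adjusted p of 0.123 and 0.108 from limma).

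Histone H2B pairs with H2A in the nucleosome, and its 7 genes gave 5 of the 9 TSS calls, 4 of them from genes that share much of their TSS sequence (all but *Hist2h2be*). *Hist1h2bc*, the strongest of them and the divergent partner of *Hist1h2ac*, read 2390.3, 2042 and 2117 RPM in Ctrl, against 987, 1261 and 972 RPM in *Kmt5b* sKO. Its groups were apart, yet the change of -1.03 ± 0.28 lay just outside the threshold (adjusted p = 0.104 from limma), while *Hist2h4* lay just inside it (0.0991). *Hist1h2bp* read 1914, 1390.4 and 1523 RPM in Ctrl, against 551, 782 and 648 RPM in *Kmt5b* sKO. The near-identical *Hist1h2bq* and *Hist1h2br* read 1767, 1469 and 1473 and then 1642, 1348 and 1343 RPM in Ctrl, against 542, 861 and 622 and then 494, 751 and 547 RPM in *Kmt5b* sKO. These 3 genes form the smaller block of the Hist1 cluster, about 46.3 kb between the outer starts, and fell by like amounts in TSS regions that share reads, with log2 fold changes of -1.29, -1.24 and -1.29 and adjusted p between 0.0400 and 0.0454 (limma). *Hist2h2be* in the Hist2 cluster, with one of the most distinct TSS regions, read 195, 184 and 131 RPM in Ctrl, against 69.2, 80.6 and 77.3 RPM in *Kmt5b* sKO. It had the smallest adjusted p of the 18, 0.0299 (limma), for a log2 fold change of -1.15 ± 0.22. Its gene body overlapped between the groups (96.1, 87.1 and 45.7 TPM against 41.8, 48.9 and 62.4 TPM) and had the smallest change of the gene bodies, -0.53 ± 0.29. *Hist1h2be*, whose listed TSS region lies within *Hist1h1e*, read 237, 353 and 102 RPM against 94.7, 195 and 82.8 RPM, which overlapped, and was not called in either region.

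Histone H3 forms the core tetramer with H4, and the 4 H3 genes gave all 3 of the gene body calls by limma. Under edgeR and DESeq2 the 11 and 14 gene body calls included genes of every histone type. Of the genes called by limma, *Hist2h3c1* and *Hist2h3c2* had gene bodies that were 68.3% and 59.8% single-copy. *Hist1h3d* was the gene called in both regions. Its TSS region, 16.2% single-copy, read 2751, 2541 and 2338 RPM in Ctrl, against 813, 1295 and 1060.2 RPM in *Kmt5b* sKO. Its gene body, 99.6% single-copy, read 1631, 1294 and 1175 TPM and 556, 681 and 488 TPM. The groups were far apart in both, at 41.5% and 42.1% of Ctrl (log2 fold changes -1.29 ± 0.30 and -1.25 ± 0.23, adjusted p = 0.0549 and 0.0691 from limma). The gene bodies of *Hist2h3c1* read 2133, 1584 and 1864 TPM in Ctrl, against 787, 910.2 and 792 TPM in *Kmt5b* sKO. Those of *Hist2h3c2* read 3231, 1939.9 and 2588 TPM and 775, 1129.6 and 1086 TPM. Both fell, with log2 fold changes of -1.16 ± 0.22 and -1.36 ± 0.29 (adjusted p = 0.0746 and 0.0861 from limma), while their TSS regions, at 50.2% and 48.8% of Ctrl, did not pass (adjusted p of 0.112 and 0.126). *Hist1h3f* had the strongest gene body of all nuclear genes, an 860-nt region that holds its whole coding part and was 13.6% single-copy. It read 9004, 8122 and 12964 TPM in Ctrl, against 2187, 7598 and 2262 TPM in *Kmt5b* sKO, so that replicate 2 lay just under the Ctrl range and the other *Kmt5b* sKO libraries far below it. Its change was not called in either region (adjusted p of 0.287 and 0.251 from limma).

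Histone H4 completes the nucleosome core, and it carries the lysine on which Kmt5b acts. The summed TSS level of the H4 genes stood at 53.7% of Ctrl, against 40.8% to 46.7% for the other types, a difference that was not tested. In gene bodies the H4 sum stood at 51.8%, within the 40.5% to 52.5% of the other types. Among H4 TSS regions *Hist4h4* was at 67.9%, and *Hist1h4d* and *Hist2h4* at 47.0% and 49.3%. *Hist1h4d* was the strongest H4 TSS region, at 3742, 2877 and 2669.6 RPM in Ctrl, against 1412, 1497 and 1461 RPM in *Kmt5b* sKO. The *Kmt5b* sKO libraries lay close together at 47.0% of Ctrl, and the change of -1.07 ± 0.31 was not called (adjusted p = 0.114 from limma). *Hist2h4* read 1820.4, 2307 and 2037 RPM in Ctrl, against 989, 996 and 1051 RPM in *Kmt5b* sKO, a called fall to 49.3% (log2 fold change -1.01 ± 0.28, adjusted p = 0.0991 from limma) in a TSS region that was 89.7% single-copy. *Hist4h4*, alone on chromosome 6 and with the most distinct TSS region of those that hold their own coding part, read 2442, 2189 and 1653 RPM in Ctrl, against 1311, 1363 and 1594 RPM in *Kmt5b* sKO. The highest *Kmt5b* sKO library came within 59 RPM of the lowest Ctrl library, and its change of -0.54 ± 0.30 was the smallest of the TSS regions (adjusted p = 0.550 from limma). Its gene body was at 56.3% of Ctrl (log2 fold change -0.79 ± 0.23, adjusted p = 0.149 from limma). Of the TSS signal of the 19 genes, H4 made up 20.8% to 22.9% in the Ctrl libraries and 21.5% to 28.0% in the *Kmt5b* sKO libraries. The shares of H1 (23.2% to 26.7% and 23.9% to 24.5%) and H3 (20.4% to 22.0% and 19.01% to 22.2%) overlapped as well, and so did that of H2B (24.01% to 25.8% and 21.04% to 26.5%). The share of H2A did not, at 6.48% to 7.48% in Ctrl and 5.71% to 6.37% in *Kmt5b* sKO. These shares cover listed genes only, 3 of 13 annotated for H4 and 2 of 18 for H2A, and were not tested. The H2A gene body sum was at 52.5% of Ctrl, against 44.4% for all 19 genes.

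By cluster, the summed TSS level was at 43.9% of Ctrl for the 13 Hist1 genes and 49.2% for the 4 Hist2 genes, and the single genes of Hist3 and Hist4 were at 56.5% and 67.9%. The gene body sums stood at 44.1% for Hist1, 43.5% for Hist2, 58.2% for Hist3 and 56.3% for Hist4. Sums over the TSS regions with more than 80% single-copy windows, 6 genes in all, were at 57.8% of Ctrl, above the 46.6% for all 19. Of the 6, *Hist4h4* and *Hist2h4* had the highest Ctrl means, at 2095 and 2055 RPM. The TSS regions of *Hist1h1d*, *Hist1h2be* and *Hist1h3f*, also among the 6, hold no coding sequence of their own. The 5 tested had a median log2 fold change of -1.01, against -1.15 for all 18 tested. Other listed genes close by were read in the same way. Of 27 tested genes within 200 kb of a histone gene that do not overlap one on the same strand, 12 had a TSS log2 fold change below 0 and 15 a gene body change below 0, with medians of 0.09 and -0.06. None of the 27 was called by limma in either region (unadjusted p under 0.05 for 1 TSS region and 5 gene bodies).

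Within the Hist1 cluster the *Kmt5b* sKO libraries did not run alike along the chromosome. *Hist1h2bh*, *Hist1h3f* and *Hist1h1d* are neighbours in 18972 nt at chr13:23541714-23560686 (GRCm38), and their gene bodies were far lower in *Kmt5b* sKO replicates 1 and 3 than in replicate 2. *Hist1h2bh* read 579.9, 967 and 1202 TPM in Ctrl, against 149, 753 and 133 TPM in *Kmt5b* sKO. Replicate 2 thus lay within the Ctrl range and the other 2 below it, and the largest log2 fold change of any histone gene, -1.83 ± 0.65, was not called (adjusted p = 0.234 from limma). Its TSS region read 1099, 1406 and 954 RPM against 274, 823 and 310.01 RPM, without overlap (-1.46 ± 0.33, adjusted p = 0.0540 from limma). Expressed as the ratio of replicate 2 to the mean of replicates 1 and 3, the 3 gene bodies gave 3.42 to 5.34, and those of the other 16 histone genes 0.938 to 2.15 (median 1.41). *Hist1h3d*, which starts 15077 nt past the end of *Hist1h1d*, was at 1.30. Single-copy windows made up 92.4% of the *Hist1h1d* gene body, 58.3% of that of *Hist1h2bh* and 13.6% of that of *Hist1h3f*. Reads from other copies can enter where windows are shared. The 3 genes were picked after their values had been seen, and replicate 2 was the shallowest library; the part of its depth in this was not tested.

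**Figure D4:**
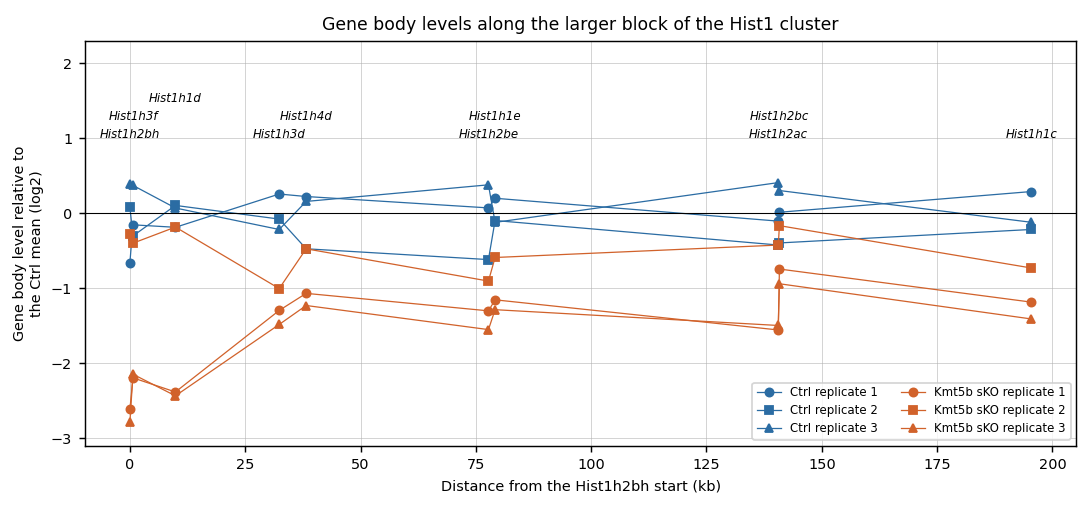
Gene body level of 10 Hist1 genes in each library relative to the Ctrl mean (log2, y axis) against the distance of each gene's start from that of *Hist1h2bh* (kb, x axis). At the left edge, for *Hist1h2bh*, *Hist1h3f* and *Hist1h1d*, *Kmt5b* sKO replicate 2 (orange squares) runs with the Ctrl libraries while replicates 1 and 3 lie 2.15 or more log2 units below the Ctrl mean.

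The pausing index, the ratio of the TSS region to the gene body, asks whether polymerases shifted between the start and the rest of the gene. Across histone genes in Ctrl it ran from 0.0213 for *Hist1h3f* to 10.1 for *Hist1h2bc* (median 1.91 over 18 genes, against 1.55 over the 11698 genes tested). The highest after *Hist1h2bc* were *Hist1h2bp* at 6.26 and *Hist1h2ac* at 4.27, and no TSS window of these 3 genes was single-copy while over 94% of their gene body windows were. *Hist3h2a* at 1.08, *Hist1h2bh* at 1.38 and *Hist1h4d* at 1.94 lay far below them, although at least 90% of their gene bodies lies behind the stem-loop too. No gene was called for a change in the index by limma, 452 genes had an unadjusted p under 0.05, and so did 1 histone gene. That gene was *Hist2h2be*, with an index of 2.02, 2.12 and 2.87 in the Ctrl libraries against 1.66, 1.65 and 1.24 (log2 ratio -0.62 ± 0.25, adjusted p = 1 from limma). The median change over the 18 histone genes was -0.05 on the log2 scale, against 0.05 over all genes, with 11 of 18 lower.

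Genes that work with the histone genes were read from lists, beside the same background. All genes tested had 41.8% of TSS regions and 46.2% of gene bodies below 0, with 0.731% and 1.38% called lower. Of the histone genes outside the replication-dependent clusters, most of which encode variants, 10 of 11 were lower in the TSS region, with a median log2 fold change of -0.46 and 3 called: *H2afx*, *Cenpa* and *H2afz*. *H2afx*, which is transcribed both as a stem-loop and as a polyadenylated mRNA, read 2399, 1527 and 1405 RPM in Ctrl, against 610.4, 762 and 789.7 RPM in *Kmt5b* sKO (-1.27 ± 0.28, adjusted p = 0.0495 from limma). *Cenpa*, the centromeric H3 variant, changed by -1.10 ± 0.24 and *H2afz*, the H2A.Z gene, by -0.93 ± 0.24. The abundant *H3f3b*, which encodes H3.3, was at -0.34 ± 0.28 and was not called. The 3 TSS calls became 0 by limma without Ctrl replicate 1 or without *Kmt5b* sKO replicate 1, 2 or 3, where 3 to 5 of the 11 had an unadjusted p under 0.05, and 2 and 4 without Ctrl replicates 3 and 2. In the gene body 8 of 11 were lower, with 0 called by limma and 4 at an unadjusted p under 0.05.

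In the histone locus body list 7 of 10 TSS regions and 9 of 10 gene bodies were lower. *Ccne1* was called in the TSS region (-1.10 ± 0.27) and *Ccne2* in the gene body (-1.03 ± 0.22), both genes for cyclin E. The TSS count fell to 0 by limma without Ctrl replicate 1 or *Kmt5b* sKO replicate 1 or 3 (1 to 2 at an unadjusted p under 0.05). The gene body count was 3 without Ctrl replicate 3 and 0 without each of the other 5 libraries in turn (2 to 3 unadjusted). *Npat* itself read 19.6, 19.3 and 22.2 TPM in Ctrl, against 16.9, 15.9 and 15.03 TPM in *Kmt5b* sKO gene bodies, which was not called (-0.34 ± 0.13, adjusted p = 0.249 from limma). In the list for 3′ end processing and decay 8 of 11 were lower in each region and 0 were called by limma, 1 and 2 of them lower at an unadjusted p under 0.05. *Slbp* read 247, 143 and 161 RPM in Ctrl, against 106, 109 and 109 RPM in *Kmt5b* sKO (-0.72 ± 0.23, adjusted p = 0.153 from limma). Among 7 histone chaperone genes tested, *Chaf1b* and *Nasp* were called in both regions and *Asf1b* in the gene body. *Chaf1b*, a subunit of the assembly factor CAF-1 that works at replication forks, changed by -1.26 ± 0.32 in the TSS region, and *Nasp*, a chaperone for H3 and H4, by -0.96 ± 0.24. Their 2 TSS calls became 0 by limma without Ctrl replicate 1 or 3 or *Kmt5b* sKO replicate 1 or 3 (2 to 5 unadjusted), and the 3 gene body calls 0 without any library but Ctrl replicate 3 (4 to 5 unadjusted).

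S phase genes were lower beside the histone genes. All 19 tested of a list of 20 DNA replication genes were lower in both regions, with medians of -0.80 for TSS regions and -0.92 for gene bodies, and 6 and 10 were called. *Pcna*, the sliding clamp, and *Mcm5*, a subunit of the replicative helicase, were called in both, with gene body changes of -1.23 ± 0.23 and -1.28 ± 0.20. Of 5 proliferation markers, 5 had a log2 fold change below 0 in both regions, and *Top2a* and *Ccna2* were called in both. The gene body of *Ccnb1* was all but unchanged, at 98.9% of Ctrl (-0.02 ± 0.13) with overlapping groups. The S phase calls by limma rested on single libraries as those of the histone genes did. Of the 19 TSS regions, 0 were called without Ctrl replicate 1 or *Kmt5b* sKO replicate 1 (9 and 8 at an unadjusted p under 0.05), 3 without *Kmt5b* sKO replicate 3 and 8 without Ctrl replicate 2. Of the gene bodies, 0 were called without Ctrl replicate 1 or any *Kmt5b* sKO library (17 to 18 unadjusted), 5 without Ctrl replicate 2 and 15 without Ctrl replicate 3. The proliferation markers had 0 calls in either region without Ctrl replicate 1, *Kmt5b* sKO replicate 1 or *Kmt5b* sKO replicate 2 (3 to 5 unadjusted). Without the filter on low values or without a trend in eBayes, no TSS region of these lists was called. The S phase list summed to 876 to 980 TPM in Ctrl gene bodies and 511 to 581 TPM in *Kmt5b* sKO, or 60.1% of Ctrl. This sum leans on *Rrm2* and *Mcm7*, with the highest Ctrl means (282 and 145 TPM), whose gene bodies were at 64.8% and 83.3% of Ctrl. The histone sum divided by the S phase sum gave 32.3, 28.5 and 37.3 for Ctrl against 19.9, 34.1 and 17.8 for *Kmt5b* sKO gene bodies, and 32.5, 33.5 and 23.4 against 25.5, 25.6 and 20.4 in TSS regions. The 2 groups overlapped in both regions. How much of the histone change went with the S phase genes was not tested. By the paper's flow cytometry the S phase share of cultured MuSCs did not differ significantly between the genotypes, while its time-lapse imaging showed reduced expansion of the mutant cells.

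**Figure D5:**
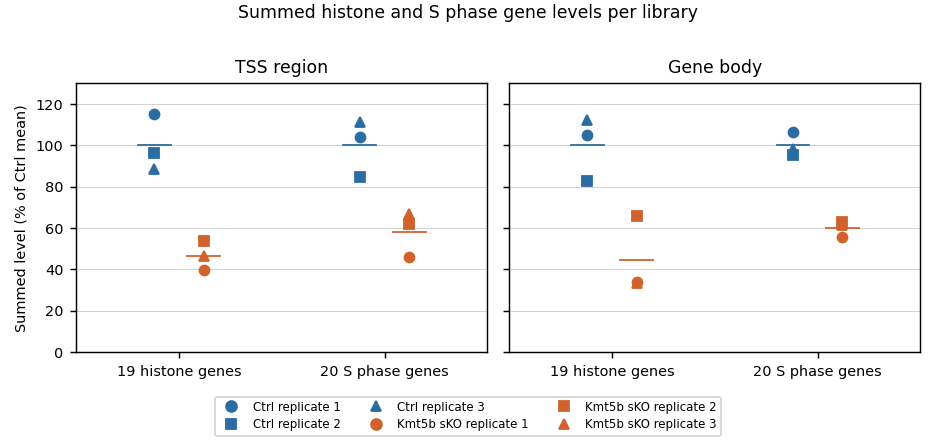
Summed level of the 19 histone genes and of the 20 S phase genes in each library, as a percentage of the Ctrl mean of that sum (y axis from 0), for the TSS region (left) and the gene body (right), with horizontal lines at the group means. Every *Kmt5b* sKO library lies below every Ctrl library in all 4 sums, at a mean of 46.6% and 44.4% for the histone genes and 58.1% and 60.1% for the S phase genes.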

How the data were processed

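The 3 Ctrl and 3 *Kmt5b* sKO PRO-seq libraries of cultured MuSCs were read from 1 deposited table. Per the submitters' processing notes and the methods, the authors trimmed reads (Trimmomatic 0.39, FastQC 0.11.8), aligned them to GRCm38 with STAR 2.6.1d and removed duplicates with Picard 2.18.16. A read with several equal positions was kept at 1 of them at random. Sense reads were assigned to isoforms of at least 1000 nt of protein-coding genes, and 1 isoform per gene was kept. The authors deposited TSS regions (400 nt) under the name TPM, which for regions of 1 length equals RPM, reads scaled to library size. Whole read counts could be recovered from them (99.67% to 100% of values whole in each library, within a rounding tolerance of 0.005). Gene bodies were deposited as TPM, normalized to length. Deduplication without molecular identifiers can remove distinct molecules from regions as heavily covered as the histone genes.

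Values were tested as log2(value + 0.5) with limma 3.58.1 in R 4.3.3 (lmFit, eBayes with a trend, genotype only) over autosomal genes whose mean reached 0.5 in each region, with calls at 0.1 after Benjamini-Hochberg adjustment. Fold changes of low genes are understated on this scale. The pausing index was tested as a log2 ratio without a pseudocount. Alternatives used edgeR 4.0.16 and DESeq2 1.42.0 on the recovered read counts, other pseudocounts, filters and scalings, a replicate block, and each library left out. The limma and count fits were first tested on simulated data. Same-numbered libraries of both groups did not deviate together (correlations of -0.16 to -0.03 in the TSS region and -0.33 to -0.15 in the gene body), so replicate numbers were not used as pairs. There were 0 columns of samples outside the series.

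Genes given in full were those called in either region, the strongest TSS region of each histone type, those with the largest and smallest change, and those decided by 1 library. From other lists, called genes and up to 4 with the highest gene body level could be named. Members, lists and tests were chosen with earlier results of these data known.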

Additional observations from a re-analysis of the deposited data

How the results depend on the processing

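The log2 fold change was below 0 for 18 of 18 tested histone genes in both regions under every alternative with those genes (without the filter on low values, 18 of 19 in the TSS region and 19 of 19 in the gene body). Their median ranged from -1.27 to -1.05 in the TSS region and from -1.25 to -0.94 in the gene body. Counts of calls depended on the settings. In the TSS region 9 histone genes were called by limma, 0 without the filter, 0 when eBayes used no trend, 5 at the stricter threshold of 0.05, but 14 by edgeR and 16 by DESeq2 on recovered reads, and 0 to 16 with 1 library left out. At an unadjusted p under 0.05 there were 14 without the filter and 15 without a trend. All genes called there numbered 207, 0 without the filter, 0 without a trend, 64 at the stricter threshold, 279 by edgeR, 295 by DESeq2, and 1 to 408 with 1 library left out. In the gene body 3 histone genes were called, 6 without a trend, 0 at the stricter threshold, 11 by edgeR, 14 by DESeq2 and 0 to 7 with 1 library left out. All genes called there numbered 372, 748 by edgeR, 1295 by DESeq2, 1 at the stricter threshold and 0 to 836 with 1 library left out. No change of the pausing index was called under any alternative. With the replicate number as a block, 0 genes were called in either region, although 17 and 14 histone genes had an unadjusted p under 0.05; the numbers do not pair the samples. The summed level ranged from 43.0% to 50.4% of Ctrl in the TSS region and from 33.7% to 49.8% in the gene body with 1 library left out, and was 57.8% over TSS regions with more than 80% single-copy windows, a choice made after the values had been seen. The 5 tested genes with such regions had a median log2 fold change of -1.01. The cause of these differences was not tested. Depth limits the least covered values, and the copies that share sequence cannot be told apart.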
